A study of Homo sapiens with 6 samples.

Results

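The miRs described here belong to groups known for routes to the mature form that bypass Drosha or Dicer. They are 10 of the 2588 miR names in the count table and were chosen by name, from background knowledge of how precursors of their kind are made: hsa-miR-320a, hsa-miR-320b, hsa-miR-320c, hsa-miR-320d and hsa-miR-484, the mirtron products hsa-miR-877-5p, hsa-miR-1226-3p, hsa-miR-1229-3p and hsa-miR-1236-3p, and hsa-miR-451a. The prefix hsa, for human, is left out below. Small RNA was sequenced from HEK293T, an established human embryonic kidney cell line, in 3 RPL24 KD and 3 NC libraries. The RPL24 KD cells received 50 nM of siPOOLs, mixtures of small interfering RNAs, against RPL24, a protein of the large ribosomal subunit. The NC cells received the same amount of a non-targeting control pool. All 6 samples were taken 72 h after the siPOOLs, and according to the labels a miR-608 plasmid had followed at 48 h, 24 h before harvest. The study describes the sequencing as a KD experiment of its own and miR-608 had 0 counts in the 6 libraries, so it is not clear that these cells held the plasmid. The comparison addresses whether depletion of RPL24 altered the levels of mature miRs. The labels do not say that the libraries of a group came from separate cultures, so the p-values measure only the spread between these libraries.

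Most animal miRs are cut from long primary transcripts in the nucleus by the microprocessor, which consists of Drosha and its partner DGCR8, and the resulting hairpin is then cut by Dicer in the cytoplasm. Some hairpins bypass one of these steps. The precursors of miR-320a and miR-484 are known as short transcripts that keep their 5′ cap, do not need Drosha and are cut by Dicer. miR-320b, miR-320c and miR-320d are close relatives of miR-320a and are included only as its family. The route by which any of these miRs was made was not measured in these libraries. Mirtrons are short introns that splicing itself releases from a host mRNA precursor and that fold into a hairpin after debranching, so that the spliceosome takes the place of Drosha. miR-451a follows the opposite course. Drosha cuts its hairpin, which is too short for Dicer, and the Argonaute protein AGO2 cuts it instead. This miR is best known from red blood cell precursors.

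The mature sequences of the 3 family members below and of miR-484 are shown because these 3 family members differ from each other only at their 3′ ends. They are RefSeq sequences on GRCh38.p14, written 5′ to 3′, with the seed (bases 2 to 8, the stretch that pairs with target mRNAs) in capitals.
miR-320b: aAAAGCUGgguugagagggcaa
miR-320c: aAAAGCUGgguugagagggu
miR-320d: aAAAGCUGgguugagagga
miR-484: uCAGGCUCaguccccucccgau

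miR-320b, miR-320c and miR-320d shared 1 seed, AAAGCUG, and were 22, 20 and 19 bases long. Counted from the 5′ end, miR-320b and miR-320c had their first 19 bases in common and then differed by C20U, and miR-320d differed from both by G19A after 18 shared bases. A read that ended at base 18 would thus fit all 3. miR-320a, which held most of the family's counts, was not compared, since its sequence was not in the reference used. How the authors counted reads that fit more than 1 miR is not stated in the sources used here. The division of the family's counts among its members is therefore uncertain. Outside the family, miR-365a-3p and miR-365b-3p had the same mean level as each other in RPL24 KD and in NC. A read may thus have been counted under more than 1 name, and the family's sums and shares may hold some reads more than once. Outside these 3, only 1 miR of the table with a sequence in the reference as used, miR-4429, had this seed. It had 4 counts over the 6 libraries. Entries of 1 chromosome were left out of the search. The seed of miR-320a was not looked up, so this search says nothing about it. The seed of miR-484 was shared by miR-3155a with 5 counts and miR-3155b with 0.

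The family is spread over the genome. miR-320b has 2 hairpins on chromosome 1. MIR320B1 is at chr1:116671746-116671817 on the plus strand, and no gene of the GENCODE 29 annotation covers it on that strand. MIR320B2, at chr1:224257040-224257110 on the minus strand, lies inside an intron of 17715 bases of NVL, an ATPase of ribosome biogenesis, 6721 bases from the intron's 3′ end. MIR320C1 and MIR320C2 on chromosome 18, MIR320D1 on chromosome 13 and MIR320D2 on chromosome X have no host on their strand. MIR484, at chr16:15643294-15643372 on the plus strand, lies in an exon of NDE1, a regulator of the motor protein dynein, before the start of the coding sequence. Only 1 annotated NDE1 transcript covers it.

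The hairpins of the 4 mirtrons are shown next, since their ends carry the splice sites. They are RefSeq hairpins, 5′ to 3′, with the first 2 and last 2 bases in capitals.
MIR877: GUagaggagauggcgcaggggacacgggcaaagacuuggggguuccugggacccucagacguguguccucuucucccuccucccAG
MIR1226: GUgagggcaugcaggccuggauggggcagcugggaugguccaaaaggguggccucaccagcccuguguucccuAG
MIR1229: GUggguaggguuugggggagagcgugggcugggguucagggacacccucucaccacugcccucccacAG
MIR1236: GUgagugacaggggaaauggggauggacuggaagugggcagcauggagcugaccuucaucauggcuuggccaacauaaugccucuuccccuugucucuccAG

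All 4 began with GU and ended with AG, the bases that mark the ends of a typical intron, and each hairpin matched an annotated intron from its first to its last base. MIR877, at chr6:30584332-30584417 on the plus strand, is the whole 86-base intron of ABCF1, a protein linked to translation initiation, in all 3 transcripts that span it. MIR1226, at chr3:47849555-47849629 on the plus strand, is the 75-base intron of the RNA helicase gene DHX30 in 6 transcripts. MIR1229, at chr5:179798278-179798346 on the minus strand, is the 69-base intron of the glycosyltransferase gene MGAT4B in 9 of 10 transcripts and lies in a longer intron of 226 bases in the other. MIR1236, at chr6:31956839-31956940 on the minus strand, is the 102-base intron of NELFE, a subunit of the negative elongation factor, in 12 of 13 transcripts and lies in an exon of the other.

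The mature members come from opposite ends of these introns and are shown to make that visible, again with the seed in capitals.
miR-877-5p: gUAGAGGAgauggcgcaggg
miR-1226-3p: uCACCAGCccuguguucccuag
miR-1229-3p: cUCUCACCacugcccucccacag
miR-1236-3p: cCUCUUCCccuugucucuccag

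miR-877-5p starts with the GU of the 5′ splice site, while the 3 members from the 3′ arm end with the AG of the 3′ splice site. None of their seeds was shared with another of the 8 members that had a sequence in the reference.

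Total counts per library were between 398721 and 611745. The floor of 3 counts thus stood for 4.99 to 7.52 CPM, normalized counts per 1000000. Of the tissue markers listed for a check of the cells, miR-10a-5p (26738 to 39385 counts), miR-20a-5p and miR-17-5p, which HEK293T cells are known to contain, were abundant in each library. The blood markers miR-144-5p, miR-223-3p and miR-150-5p had 0 counts and the 2 arms of miR-142 and miR-144-3p had 1 each, while miR-486-5p, which also occurs outside blood, had 29 to 77. miR-122-5p of liver had 4 counts in all, and of the muscle miRs miR-206 had 0, miR-133a-3p 29 in all and miR-1-3p 104 to 203 in each library. Of the 16 markers listed among the miR names 12 had a read, 7 were tested and 1 was differentially expressed, the HEK293T miR miR-196b-5p (log2 fold change 0.37, edgeR adjusted p = 0.00407). Within the groups, libraries differed by more than counting noise, with a chi-square per degree of freedom from 2.18 to 2.50 between RPL24 KD libraries and from 9.72 to 17.4 between NC libraries. In either group 1 library is called unnumbered, since its number in the table matches no label.

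The 10 members together took a median of 0.600% of the counts of a library (0.568% to 0.630%, 6 libraries). miR-320a and miR-484 held 92.3% to 93.2% of these counts. On the CPM scale, the mean level over the 6 libraries was 3425 for miR-320a and 2158 for miR-484, which ranked 44 and 55 among all miRs. miR-320b followed with 204 CPM, miR-877-5p with 168 CPM and miR-320c with 35.5 CPM. The lowest library of miR-320a lay above the highest of miR-484, and the same held between miR-484 and miR-320b, between miR-877-5p and miR-320c, and between miR-320c and miR-1226-3p. miR-320b was above miR-877-5p in 4 of 6 libraries and miR-1226-3p above miR-320d in 3 of 6, so that neither pair had an order beyond the spread. miR-1226-3p and miR-320d were at 11.99 and 11.96 CPM, miR-451a and miR-1229-3p had means under the floor, and miR-1236-3p had no read. CPM values are not corrected for how well each sequence is captured in a library.

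**Figure D1:**
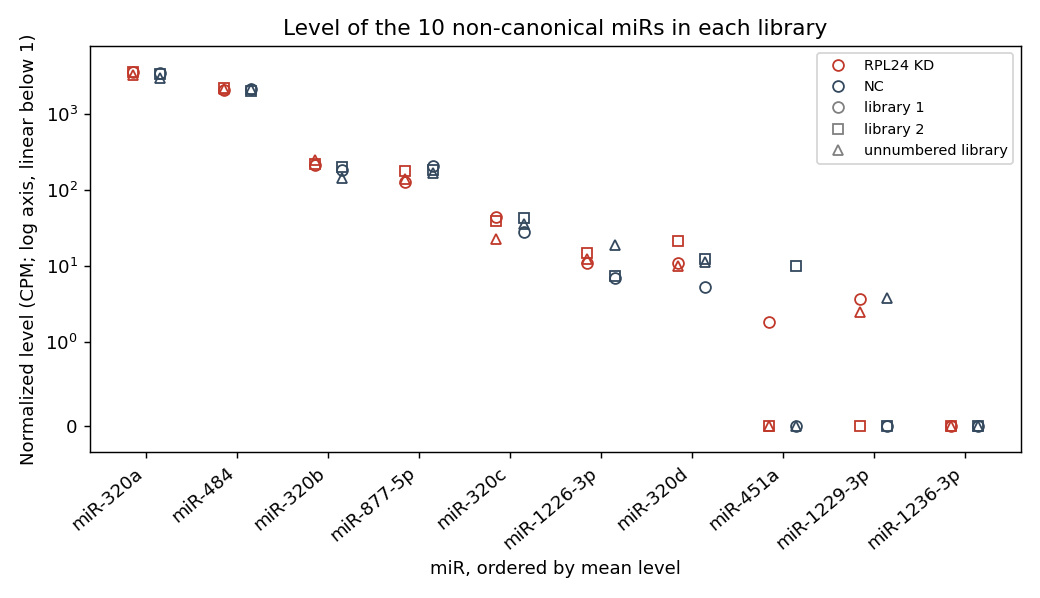
Normalized level of each member in each library, in CPM on a log axis that is linear below 1; RPL24 KD libraries are red, NC libraries dark, circles library 1, squares library 2 and triangles the unnumbered libraries. miR-320a and miR-484 lie above all other members in each library, and the lowest 3 members have libraries at 0.

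The RPL24 KD and NC libraries were compared with edgeR (quasi-likelihood test) across the 360 miRs that passed its filter on low counts. A miR counted as DE, differentially expressed, where its p after Benjamini-Hochberg adjustment was under 0.05. Of the 10 members 5 passed the filter and 0 of these 5 were DE, beside 18 DE miRs of 360, or 5.00%, of which 12 were higher and 6 lower after RPL24 KD. At an unadjusted p under 0.05 the counts were 1 of 5 members and 85 of 360 miRs (23.6%). DESeq2 and limma-voom likewise called 0 members. Among the tested members 4 had a log2 fold change above 0 and 1 below, with a median of 0.08 beside -0.01 over all tested miRs. The median absolute log2 fold change was 0.11 for the members and 0.16 for all tested miRs. In 1 of the 5 members the RPL24 KD and NC libraries did not overlap in CPM, as was the case for 99 of the 360 miRs (27.5%).

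miR-320a, the most abundant member, had 3639, 3677 and 3349 CPM in RPL24 KD libraries 1, 2 and unnumbered, and 3483, 3420 and 2984 CPM in NC libraries 1, 2 and unnumbered. The unnumbered library was the lowest of each group and the groups overlapped. The means were 3555 ± 179 CPM in RPL24 KD and 3295 ± 272 CPM in NC (SD, n = 3 each). The log2 fold change was 0.11 (SE 0.076, 95% interval -0.05 to 0.27, edgeR adjusted p = 0.421). As a fold, the interval reached from 0.964 to 1.21. The log2 fold change was 0.03 without the unnumbered NC library and 0.06 when scaled to total counts.

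miR-484 had 2108, 2261 and 2162 CPM in RPL24 KD libraries 1, 2 and unnumbered, and 2197, 2057 and 2159 CPM in the NC libraries in the same order. The highest and the second highest value came from different groups, as did the lowest and the second lowest. The means were 2177 ± 77.5 CPM in RPL24 KD and 2138 ± 72.3 CPM in NC (SD, n = 3 each). The log2 fold change was 0.03 (SE 0.070, 95% interval -0.13 to 0.18, edgeR adjusted p = 0.875), and its sign turned under another scaling and another filter. The smallest absolute log2 fold change of a DE miR was 0.26, which lies outside this interval and inside that of miR-320a. The SD of log2 CPM within groups was 0.05 for miR-484 and 0.10 for miR-320a, beside a median of 0.17 over the tested miRs.

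miR-320b was the member with the smallest p. It had 218, 220 and 251 CPM in RPL24 KD libraries 1, 2 and unnumbered, from 119, 132 and 100 counts. In the NC libraries in the same order it had 187, 202 and 144 CPM, from 107, 81 and 76 counts. Each RPL24 KD library was above each NC library, and the unnumbered libraries were the highest of one group and the lowest of the other. The means were 229 ± 18.4 CPM in RPL24 KD and 178 ± 30.3 CPM in NC (SD, n = 3 each). The log2 fold change was 0.37 (SE 0.14, 95% interval 0.06 to 0.67), with an unadjusted p of 0.0230 from edgeR and an adjusted p of 0.140, above the threshold. Without the unnumbered NC library it was 0.22 (edgeR adjusted p = 0.404).

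miR-320c had 24, 24 and 9 counts in RPL24 KD libraries 1, 2 and unnumbered and 16, 17 and 19 in the NC libraries in the same order. These stood for 22.5 to 43.9 CPM in RPL24 KD and 28.0 to 42.5 CPM in NC, so the groups overlapped. The log2 fold change of 0.08 had a 95% interval from -0.55 to 0.72 (SE 0.30, edgeR adjusted p = 0.900), which covers both signs widely, and it turned negative without RPL24 KD library 1 and without NC library 1. miR-320d, with 6, 13 and 4 counts in RPL24 KD and 3, 5 and 6 in NC, did not pass the filter. Summed over a group, its 23 and 14 counts stood for 14.6 per 1000000 raw counts (exact 95% binomial interval 9.24 to 21.9) in RPL24 KD and 9.48 (5.18 to 15.9) in NC. The intervals overlapped, and they cover counting error only, as do all others given here for counts.

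**Figure D2:**
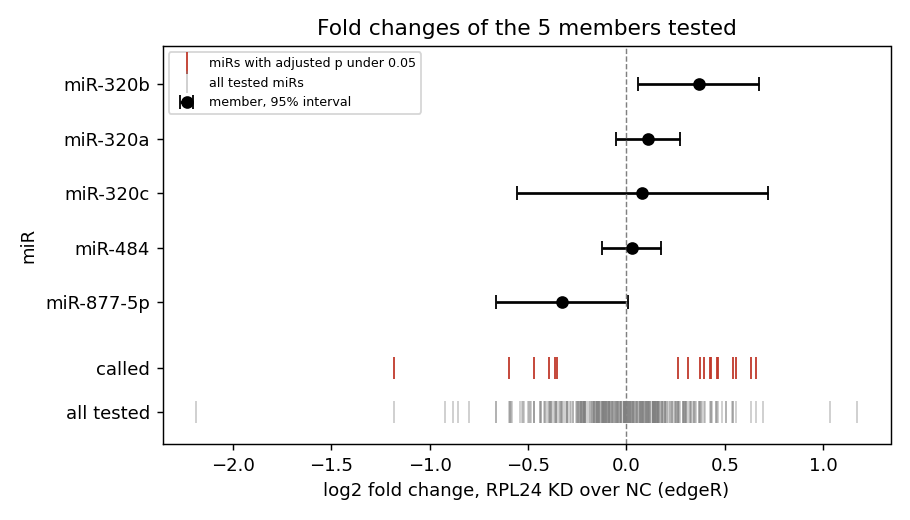
log2 fold change of RPL24 KD over NC for the 5 tested members with 95% intervals (points and bars), above the 18 DE miRs (red ticks) and all 360 tested miRs (grey ticks). The interval of miR-320b lies above 0, that of miR-877-5p just reaches 0, and those of miR-320a, miR-320c and miR-484 include 0.

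Within the family, miR-320a held most of the counts in each library, 92.2% to 93.0% in RPL24 KD and 93.0% to 94.0% in NC. The share of miR-320b was 5.56%, 5.55% and 6.90% in RPL24 KD libraries 1, 2 and unnumbered and 5.05%, 5.51% and 4.54% in the NC libraries in the same order. Each RPL24 KD library was above each NC library, though RPL24 KD library 2 exceeded NC library 2 by less than the spread within either group (SD 0.774 and 0.485 percentage points, n = 3 each). The log2 ratio of miR-320b to miR-320a counts was -3.96 ± 0.19 in RPL24 KD and -4.22 ± 0.15 in NC (SD, n = 3 each). This ratio was not tested. The shares of miR-320c, 0.917% ± 0.263 and 1.02% ± 0.225, and of miR-320d, 0.368% ± 0.155 and 0.280% ± 0.120, overlapped between the groups. Summed over the 4 miRs, the family stood at 3632 to 3958 CPM in RPL24 KD and 3175 to 3703 CPM in NC. miR-320e, a shorter relative outside the members, had 8 counts in all.

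**Figure D3:**
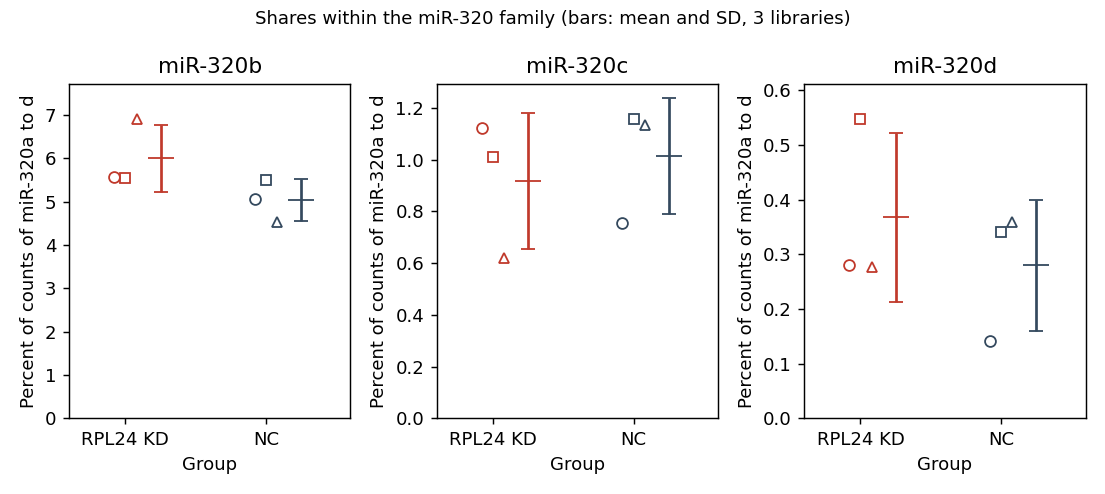
Percent of the counts of miR-320a to miR-320d taken by miR-320b, miR-320c and miR-320d in each library (circles library 1, squares library 2, triangles unnumbered), with the mean and SD of 3 libraries beside them. For miR-320b the RPL24 KD libraries (5.55% to 6.90%) lie above the NC libraries (4.54% to 5.51%), while for miR-320c and miR-320d the groups overlap.

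Of the mirtron products only miR-877-5p was tested. It had 128, 178 and 140 CPM in RPL24 KD libraries 1, 2 and unnumbered, from 70, 107 and 56 counts. In the NC libraries in the same order it had 212, 182 and 169 CPM, from 121, 73 and 89 counts. RPL24 KD library 2 lay above the unnumbered NC library, so the groups overlapped, while the other 2 RPL24 KD libraries were below each NC library. The means were 149 ± 26.1 CPM in RPL24 KD and 188 ± 21.9 CPM in NC (SD, n = 3 each). The log2 fold change of -0.33 (SE 0.16, 95% interval -0.66 to 0.01) had an unadjusted p of 0.0558 from edgeR and an adjusted p of 0.223, above the threshold. It was -0.50 without RPL24 KD library 2 and -0.22 without RPL24 KD library 1 or without NC library 1. It is the only tested member below 0, and whether it differed from the change of the other members was not tested.

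The other mirtron members were close to the limit of these libraries. miR-1226-3p had 6, 9 and 5 counts in RPL24 KD and 4, 3 and 10 in NC, or 12.7 (exact interval 7.75 to 19.6) and 11.5 per 1000000 raw counts (6.70 to 18.4) over the groups. miR-1229-3p had 3 counts in RPL24 KD and 2 in NC. miR-1236-3p had 0 counts in 1577125 RPL24 KD and 1477128 NC counts, which allows up to 1.90 and 2.03 per 1000000 at 3 counts over a group and up to 2.34 and 2.50 by the exact interval. The intervals of the groups overlapped for miR-1226-3p. Without the filter on low counts 9 members were tested by edgeR, all but miR-1236-3p, and 0 were DE. In that fit 31 of 1205 miRs were DE.

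Both arms of the mirtron hairpins are listed in the table, so their reads could be divided by arm. miR-877 had 516 counts of its 5p arm of 555 in all, or 93.0% (exact binomial 95% interval 90.5% to 94.96%), with 92.8% in RPL24 KD and 93.1% in NC. Its 5p share was between 88.1% and 98.6% in the single libraries. miR-1226 had 30 counts of the 5p arm of 67, or 44.8% (32.6% to 57.4%), with 37.5% (21.1% to 56.3%) in RPL24 KD and 51.4% (34.0% to 68.6%) in NC. The 5p arm thus held most of the reads of miR-877, and neither arm predominated in the reads of miR-1226 at this depth. These read shares are not corrected for how well the sequence of each arm is captured. miR-1229 had 5 counts of its 3p arm and 0 of its 5p arm.

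To place these members among their kind, the hairpins of the reference table, except those of 1 chromosome, were matched to GENCODE introns. Of 1467 hairpins compared, 23 spanned a whole intron on their strand with both ends within 2 bases. All 23 began with GU and ended with AG, as did 2.45% of all hairpins compared, the 23 included. Typical introns have these ends, so the match itself favours them, also in the mature miRs counted next. Their 40 mature miRs in the count table included 18 named 5p, of which 13 started with GU, and 20 named 3p, of which 16 ended with AG. Among the other 5p and 3p miRs the shares were 4.07% and 21.5%. A total of 11 of the 40 had a read and 1, miR-877-5p, passed the filter. miR-877-5p held 80.2% of the 643 counts of these hairpins. Their sum was 166, 209.6 and 190 CPM in RPL24 KD libraries 1, 2 and unnumbered and 247, 210.0 and 237 CPM in the NC libraries in the same order. The groups did not overlap, by a margin of under 1 CPM between the libraries numbered 2, and this sum was not tested. A list of 25 related miRs held the partner arms, 15 further mirtron arms, miR-320e and the miR-451a cluster. The cluster was listed for its position, not for its route. Of the 25, 7 had a read and 0 passed the filter. The highest were miR-877-3p with 39 and miR-1226-5p with 30 counts.

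**Figure D4:**
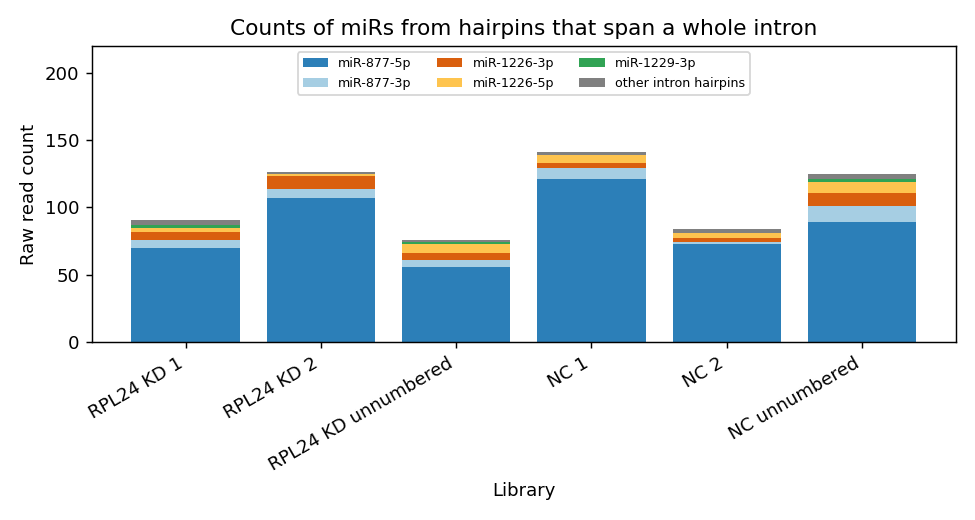
Raw read counts of miRs whose hairpin spans a whole intron, stacked by miR for each library, on an axis from 0. miR-877-5p makes up most of each bar, and the bars, which are not scaled to library size, total from 76 to 141 counts.

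miR-451a, the Dicer-independent member, was close to absent. It had 1 count in RPL24 KD library 1, 4 counts in NC library 2 and 0 in the other 4 libraries, or 0.634 per 1000000 raw counts (exact interval 0.016 to 3.53) in RPL24 KD and 2.71 (0.738 to 6.93) in NC. MIR451A is on the minus strand of chromosome 17 (GENCODE 29, from 28861369 to 28861440 on GRCh38), 92 bases from MIR144 on the same strand. Over the 6 libraries the arms of miR-144 had 1 and 0 counts, and the other listed miRs of this cluster, both arms of miR-4732 and miR-451b, had 0.

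The miRs whose log2 CPM moved most like that of miR-320a over the 6 libraries were miR-615-3p (Pearson r = 0.96), miR-92b-3p (r = 0.95) and miR-99a-5p (r = 0.92). For miR-484 they were miR-301a-3p (r = 0.85), miR-548aq-3p (r = 0.84) and miR-556-3p (r = 0.83). miR-320a and miR-484 themselves had r = 0.17. These are the highest of 360 miRs over 6 libraries that share their scaling, and are given as a description only.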

How the data were processed

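The authors' reads passed through FastQC, Flexbar (trimming) and miRExpress (alignment to miRBase), and they deposited raw read counts per mature miR and library, without normalization. Multiply matching reads could move counts between miR-320 family members or be counted under more than 1 of them. miR-365a-3p and miR-365b-3p each had means of 130.4 CPM in RPL24 KD and 129.5 CPM in NC. Groups were taken from the labels. In each group 1 column of the table has a number absent from the labels and was used without it, and 0 columns were left out.

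Counts were normalized by TMM, filtered with filterByExpr (minimum count 10) and tested with edgeR 4.0.16 in R 4.3.3 (glmQLFTest, two-sided, no replicate block) over all 6 libraries. Standard errors come from the F statistic, and 95% intervals from the quasi-likelihood degrees of freedom. DESeq2 1.42.0, limma 3.58.1, other scalings and filters and leaving out single libraries were alternatives. The default edgeR fit of earlier versions (legacy) and a fit of the numbered libraries alone were added after seeing the data. Scripts were tested on simulated data. The miRs named are all 10 members, lists of related miRs and of tissue markers, and the 3 miRs most like miR-320a and miR-484. miR-4429 and miR-3155 were named for their seed, and miR-365a-3p and miR-365b-3p for their equal levels. Members and lists were chosen with earlier results of these data known. Mature sequences were matched for 8 members, not for miR-320a or miR-451a, and hosts were taken from GENCODE 29. Reference entries on chromosome 8 were left out of the seed search and of the intron match.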

Additional observations from a re-analysis of the deposited data

How the results depend on the processing

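No tested member was DE in any of the 16 alternatives. Of 78 member values, 72 kept their sign and 6 turned it, and no adjusted p came under the threshold. The lowest were 0.0831 for miR-320b without NC library 2 and 0.112 for miR-877-5p without the unnumbered NC library. miR-484 went to -0.024 with total counts and -0.011 with a filter at a mean of 100 counts, and lay between -0.0033 and 0.049 when single libraries were left out, and miR-320c between -0.083 and 0.26 (log2). The 18 DE miRs became 28 with total counts, 31 without a filter, 34 with robust edgeR and 0 to 36 without single libraries: 0 without RPL24 KD library 1 (56 at an unadjusted p under 0.05), 8 without RPL24 KD library 2 and 36 without the unnumbered NC library. DESeq2 called 14 and limma-voom 21. The filter at a mean of 100 counts left 166 miRs, 3 of them members, and called 27. Among the libraries numbered 1 and 2, those with the same number did not deviate together (correlation -0.03 over 360 miRs). This rests on 1 difference between libraries in each group. The unnumbered libraries, whose columns share a number that matches no label, were not part of it. A replicate block over the numbered libraries called 57. The same libraries without a block, added after seeing the data, called 27, and miR-320b was at 0.16 (log2) with and without the block. The cause of these shifts was not tested. The members' summed share was 1.34% in place of 0.600% without the 10 most abundant miRs, by construction. Depth limits miR-320c, miR-320d, miR-451a and all mirtrons but miR-877-5p.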
